A study of Mus musculus with 2 samples.

Results

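Complex I of the respiratory chain was described through the 42 genes whose array name starts with Nduf, in the liver of 1 Drp1 knockout and 1 wild type group. The members were taken by name from the probes that both arrays carry outside their control spots. They comprise 57 of 39429 probes, and 42 of 30165 genes. Of these genes, 36 encode subunits of complex I, 4 encode assembly factors (Ndufaf1 to Ndufaf4), and Ndufa4 and Ndufa4l2 bear an Nduf name although Ndufa4 is now placed in complex IV and Ndufa4l2 is its paralogue. Both groups were livers of male C57BL/6J mice on a high-fat diet based on lard (24% fat, 45% of the energy) for 24 weeks, starting at 4 weeks of age. The knockout group is a knockout of Drp1, the product of Dnm1l and the GTPase that constricts mitochondria until they split. The labels name neither the deleted part of the gene nor any promoter that drives a deletion, and they do not give the number of animals behind an array or the feeding state of the mice.

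Complex I is the entry point of the respiratory chain. It oxidises NADH from fatty acid and pyruvate breakdown, passes the electrons along iron-sulfur clusters to ubiquinone, and pumps protons across the inner mitochondrial membrane. An L-shaped assembly, it has a matrix arm that carries out the electron transfer and a membrane arm that pumps. Core subunits, conserved from bacteria, do the chemistry, and accessory subunits surround and stabilise them. The core of the matrix arm is encoded in the nucleus and that of the membrane arm in mitochondrial DNA. Assembly factors help the modules come together and are absent from the finished enzyme. The liver, rich in mitochondria, uses complex I to reoxidise the NADH made by fat oxidation.

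Agilent 1-colour arrays measured Cy3-labelled RNA with probes of 60 bases. Levels below are relative to the signal at the 75th percentile of the same array, as multiples of it, and differences are log2 values, knockout minus wild type. Each group held 1 array, so differences could not be checked against replicates or tested. Of all probes, the knockout array showed 22521 (57.1%) well above background and the wild type array 19923 (50.5%), and 15385 genes were measured on both. Spots of the same probe gave a difference between the arrays an SD of 0.14, or 1.1-fold, and 2 such SDs come to 0.28. This error covers the spots alone and leaves out labelling, hybridisation and animals. Dnm1l had a level of 1.75 in the knockout and 2.03 in the wild type (difference -0.21). Its probe does not check the knockout label, since the labels do not say which exons were deleted. Fgf21, the liver hormone that the study is about, had 20.2 in the knockout and 3.37 in the wild type, 5.98-fold higher.

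The probes below are shown because they stand at opposite ends of the range and because all but that of Ndufs4 run over an exon boundary, as judged from a genomic span longer than 60 bases. They are given 5′ to 3′ in the sense of the transcript, with the mm9 positions of the array's design. Ndufb8 lies on the minus strand at chr19:44624855-44627199 and had a difference of -0.66. Ndufa10 lies on the minus strand at chr1:94361039-94363996 and had a difference of -0.14. Ndufs4 lies on the minus strand at chr13:115078980-115079039 and had a difference of -0.12.
Ndufb8: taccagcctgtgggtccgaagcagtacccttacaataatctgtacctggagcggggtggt
Ndufa10: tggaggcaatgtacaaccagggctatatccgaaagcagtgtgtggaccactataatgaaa
Ndufs4: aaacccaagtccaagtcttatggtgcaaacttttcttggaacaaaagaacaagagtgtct

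All 42 genes were measured on both arrays, through 55 of their 57 probes. All 42 were lower in the knockout relative to the array's 75th percentile, with a median difference of -0.46 and a range from -0.76 for Ndufb3 to -0.04 for Ndufaf4, whereas all 42 were above 0 (median 0.36) when both arrays were scaled to the E1A spike-in spots, which bind control RNA added to the samples. The spike-in scaling raised every difference by 0.82 and gave all measured genes a median of 0.71 in place of -0.11. With it, 5 members passed 1.5-fold upwards and 0 downwards, against 62.4% and 1.25% of all genes. Relative to the all-gene median, the members' median was -0.35 under either scaling. Of the members, 9 were at least 1.5-fold lower and 0 were at least 1.5-fold higher. In comparison, 13.4% of all measured genes were at least 1.5-fold lower and 8.42% at least 1.5-fold higher. Thus 33 of the 42 genes lay between 1.5-fold lower and no difference. Of all 42, 33 were lower by more than 2 spot SDs and 9 lay within them. The share of all genes beyond this cut was not counted, but their lower quartile was -0.39, which lies beyond it too.

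The direction was shared with most genes of like brightness, so the count of 42 has to be read against them. Of all measured genes, 60.1% were lower in the knockout by any amount. Among the 1580 genes between the quartiles of the members' own levels, the share was 82.8%, and 14.1% of them were at least 1.5-fold lower against 2.22% at least 1.5-fold higher. The median of those 1580 genes was -0.25, and 34 of the 42 members lay below it. The lower quartile of the 1580 genes was -0.46, so many genes of like brightness also lay beyond 2 spot SDs. Of the members, 40 lay below the median of all genes, and the exceptions were Ndufs1 and Ndufaf4. Divided into 10 groups by level, all genes had medians of -0.25 in the dimmest group, up to 0.02 in the third and -0.30 in the brightest, which holds 25 of the 42 members. In the brightest group, 17.4% of genes were at least 1.5-fold lower, and in the dimmest, which holds 0 members, 25.1%. Across the 42 members the difference had a Spearman correlation of -0.60 with the level, against -0.14 across all 15385 genes. Both are descriptions across genes that share the same arrays and scaling.

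**Figure D1:**
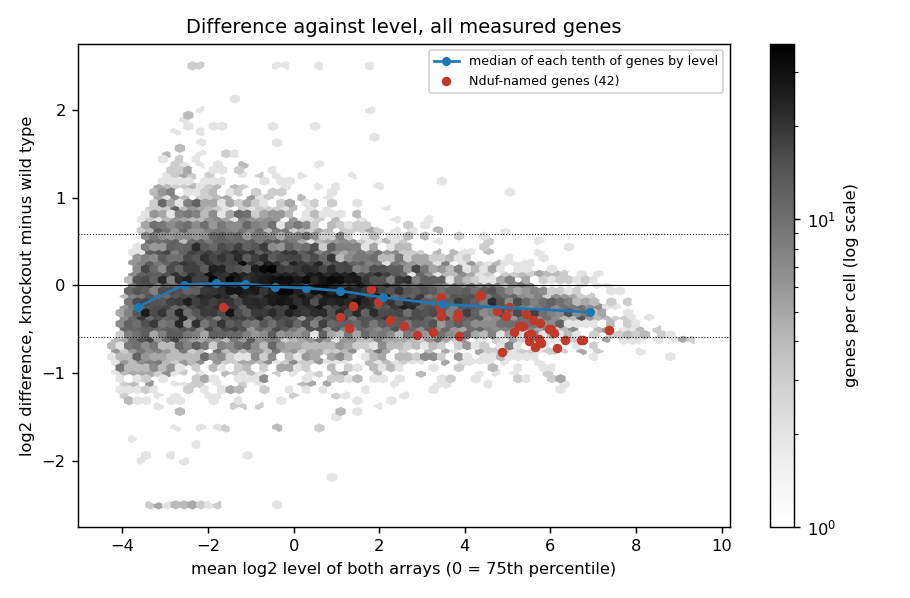
Log2 difference (vertical axis, knockout minus wild type) against the mean log2 level of both arrays (horizontal axis, 0 is the 75th percentile) for 15385 measured genes, shaded by number of genes per cell, with values beyond the axis drawn at its ends. Blue points join the medians of 10 groups by level, dotted lines mark 1.5-fold, and the 42 Nduf-named genes (red) lie mostly in the bright range and below the line of medians. The whole cloud would move up by 0.82 under spike-in scaling.

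Loess normalization, which removes the dependence of the difference on brightness, left 37 members below 0 and 5 above. The members' median was then -0.17, or -0.18 relative to the all-gene median, and 11 members were below 0 by more than 2 spot SDs. The share of all genes beyond this cut after loess was not counted. None of the members was then at least 1.5-fold lower (0 of 42), while 9.5% of all genes were, and 49.5% of all genes were lower by any amount. The 5 genes above 0 after loess were Ndufs1 (0.15), Ndufs4 (0.13), Ndufa10 (0.08), Ndufaf4 (0.07) and Ndufc2 (0.03). The greatest negative value remained that of Ndufb3, at -0.49. Thus the size of the members' difference, and for these 5 its sign, depended on how brightness was treated.

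**Figure D2:**
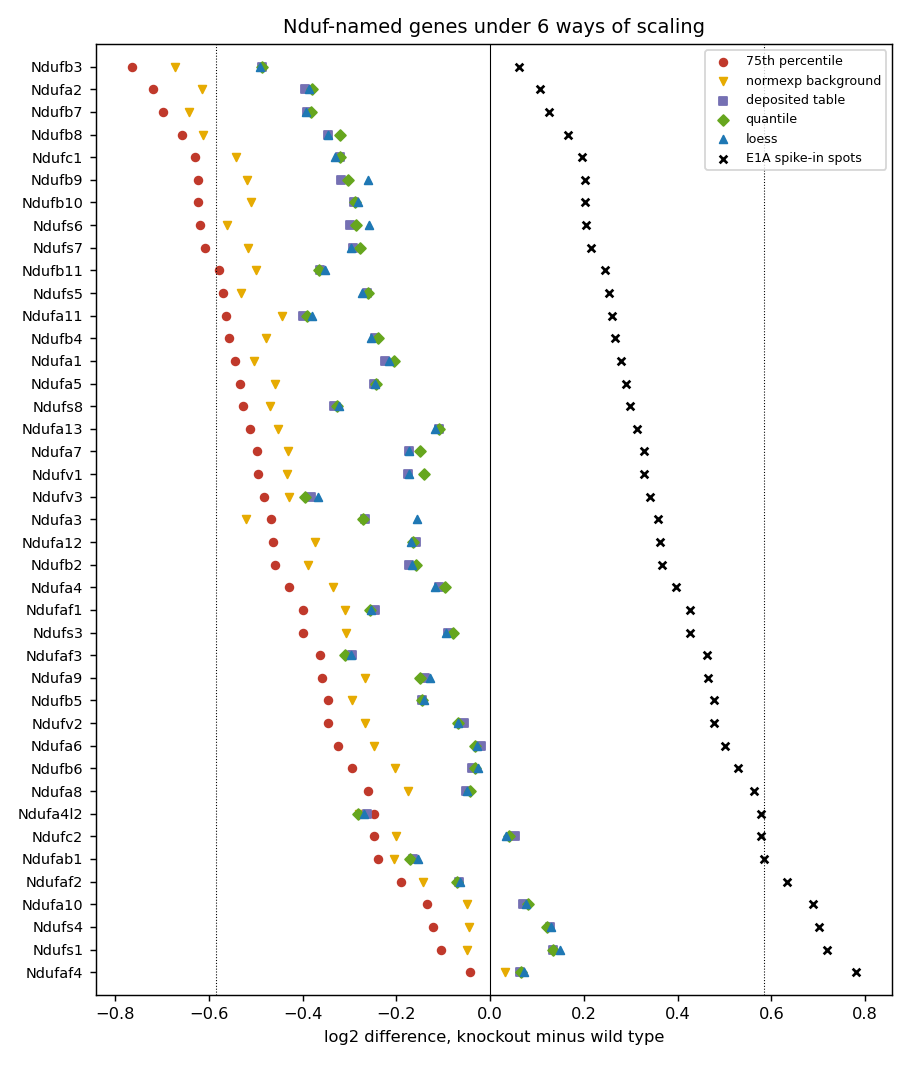
Log2 difference (horizontal axis, knockout minus wild type) of each of 41 Nduf-named genes under 6 ways of scaling the 2 arrays, with dotted lines at 1.5-fold. The position of the whole set moves between settings, with all 41 below 0 after scaling to the 75th percentile, 36 below 0 after loess and 0 below 0 after scaling to the E1A spike-in spots.

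The 7 core subunits of the matrix arm had a median of -0.40 relative to the 75th percentile. It was -0.10 after loess and 0.43 after spike-in scaling. Relative to the 75th percentile, 1 of 7 was at least 1.5-fold lower. The shares were 13.4% of all genes and 14.1% of genes of like brightness. Ndufv1 binds the flavin that accepts electrons from NADH, and had 52.9 in the knockout and 74.6 in the wild type (-0.50). Its partner Ndufv2, which carries an iron-sulfur cluster, had 27.9 in the knockout and 35.4 in the wild type (-0.35). Ndufs1, the largest subunit and the bearer of several clusters on the path away from the flavin, had 20.0 in the knockout and 21.5 in the wild type (-0.11). Ndufv1 and Ndufv2 were thus beyond 2 spot SDs of 0 and Ndufs1 was within them.

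Further core subunits lead the electrons to ubiquinone. Ndufs8, with a pair of clusters, had 7.96 in the knockout and 11.5 in the wild type (-0.53). Ndufs7, which holds the last cluster before the quinone, had 43.4 in the knockout and 66.2 in the wild type (-0.61), a 1.52-fold lower level. Ndufs7 was the core subunit past the 1.5-fold mark, and of all members the one just inside it, with Ndufb11 (1.49-fold) just outside. Ndufs3, a scaffold of the early matrix arm, had 42.4 in the knockout and 55.9 in the wild type (-0.40).

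The 9 accessory subunits of the matrix arm had a median of -0.48 relative to the 75th percentile. It was -0.17 after loess and 0.34 after spike-in scaling. Relative to the 75th percentile, 2 of 9 were at least 1.5-fold lower, against 13.4% of all genes and 14.1% of genes of like brightness. Ndufa2, a thioredoxin-like subunit near the NADH end, had 56.0 in the knockout and 92.1 in the wild type, 1.65-fold lower (-0.72). Ndufs6, which binds zinc, had 84.3 in the knockout and 129 in the wild type, 1.54-fold lower (-0.62). Ndufs4 stabilises the attachment of the NADH-oxidising module and is best known from the mouse model of Leigh syndrome that its loss produces. Its level was 19.2 in the knockout and 20.9 in the wild type (-0.12), within the spot error. Ndufa2 and Ndufs4 were further apart than 2 spot SDs of a pair of genes (0.40), but not further than 2 SDs that include the spread between probes (0.62).

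The other 6 matrix arm accessory genes lay between these. Ndufa5 had 29.6 in the knockout and 42.8 in the wild type (-0.53), and its 2 probes gave -0.59 and -0.48. Ndufa7 had 54.7 in the knockout and 77.2 in the wild type (-0.50). Ndufa12, which takes the place that the assembly factor Ndufaf2 holds during construction, had 34.9 in the knockout and 48.1 in the wild type (-0.46). These genes were thus lower by more than the spot error without reaching 1.5-fold. Ndufa9, a nucleotide-binding subunit at the junction of the arms, had 12.5 in the knockout and 15.99 in the wild type (-0.36). Ndufa6, of the LYR family that binds acyl carrier protein, had 38.6 in the knockout and 48.3 in the wild type (-0.32). Ndufv3 averaged 2.07 in the knockout and 2.90 in the wild type (-0.48), over probes at -0.68, -0.40 and -0.36. Its probe at -0.68 was also the one with signals far above the 75th percentile (65.9 in the knockout and 105.9 in the wild type), while the other 2 stayed below it on both arrays.

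The 20 measured accessory subunits of the membrane arm had a median of -0.55 relative to the 75th percentile. It was -0.24 after loess and 0.27 after spike-in scaling. Relative to the 75th percentile, 6 of 20 were at least 1.5-fold lower, against 13.4% of all genes and 14.1% of genes of like brightness. Ndufb3, a small membrane-anchored subunit, had the most negative value of all members when the probes of each gene were averaged. It had 22.3 in the knockout and 37.9 in the wild type, 1.70-fold lower (-0.76). Ndufb7, an intermembrane-space protein held by disulfides, had 39.1 in the knockout and 63.4 in the wild type, 1.62-fold lower (-0.70). Ndufb8, often used as the antibody target for complex I on blots because it is unstable outside the complex, had 43.7 in the knockout and 68.9 in the wild type, 1.58-fold lower (-0.66). By gene average, these 3 genes and Ndufa2 had the most negative differences of the set, and their order among themselves is within the spot error.

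The next members of the membrane arm were tightly packed. Ndufc1 had 36.3 in the knockout and 56.1 in the wild type (-0.63). Ndufb9, another LYR protein, had 87.5 in the knockout and 135 in the wild type (-0.62). Ndufb10, at the far end of the arm, had 65.3 in the knockout and 100.4 in the wild type (-0.62). All 3 were between 1.54-fold and 1.55-fold lower, a spacing far inside the spot error. X-linked Ndufb11 averaged 12.0 in the knockout and 17.9 in the wild type (-0.58), with probes at -0.63, -0.60 and -0.51, although the design places 1 of them on chromosome 5 in mm9. Ndufs5 had 36.3 in the knockout and 54.0 in the wild type (-0.57), and Ndufa11, which sits where complex III docks in supercomplexes, had 6.11 in the knockout and 9.03 in the wild type (-0.56). The probes of Ndufs5 and Ndufs6 also match an accession of a non-coding transcript in the design, so their signals may not belong to the coding gene alone.

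The next 5 membrane arm genes were less than 1.5-fold lower but beyond the spot error, from -0.56 to -0.46. Ndufb4 had 38.6 in the knockout and 56.8 in the wild type (-0.56), X-linked Ndufa1 had 56.6 in the knockout and 82.5 in the wild type (-0.54), and Ndufa13, also known as Grim19, had 139 in the knockout and 198 in the wild type (-0.51). Ndufb2 had 33.0 in the knockout and 45.4 in the wild type (-0.46), with probes at -0.51 and -0.40. Ndufa3 averaged 5.06 in the knockout and 6.995 in the wild type (-0.47), but its 3 probes ran from -0.80 to 0.06. The probe at 0.06 had levels of 0.0738 in the knockout and 0.0706 in the wild type, near the low end of measured signals, and belongs to an upstream stretch of the gene, so the average lies above the values of the other 2 probes. Those were at -0.80 and -0.66, each more than 1.5-fold lower. With its brightest probe alone Ndufa3 stood at -0.80, beyond Ndufb3 (-0.76), and with the stricter filter on dim probes at -0.73.

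The remaining membrane arm genes had the smallest differences. Ndufb5 had 9.61 in the knockout and 12.2 in the wild type (-0.35), over 2 probes at -0.40 and -0.29, and its other 2 probes were not well above background on both arrays. Ndufb6 had 24.2 in the knockout and 29.6 in the wild type (-0.30). Ndufa8 had 9.86 in the knockout and 11.8 in the wild type (-0.26), and Ndufc2 had 30.04 in the knockout and 35.6 in the wild type (-0.25). From Ndufa8 on, differences were within 2 spot SDs of 0. Ndufab1, the mitochondrial acyl carrier protein that also serves lipoic acid synthesis, had 2.39 in the knockout and 2.83 in the wild type (-0.24). A probe for a second Ndufab1 transcript, outside the name rule, gave -0.27. Ndufa10, which resembles nucleoside kinases, had 10.5 in the knockout and 11.5 in the wild type (-0.14).

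**Figure D3:**
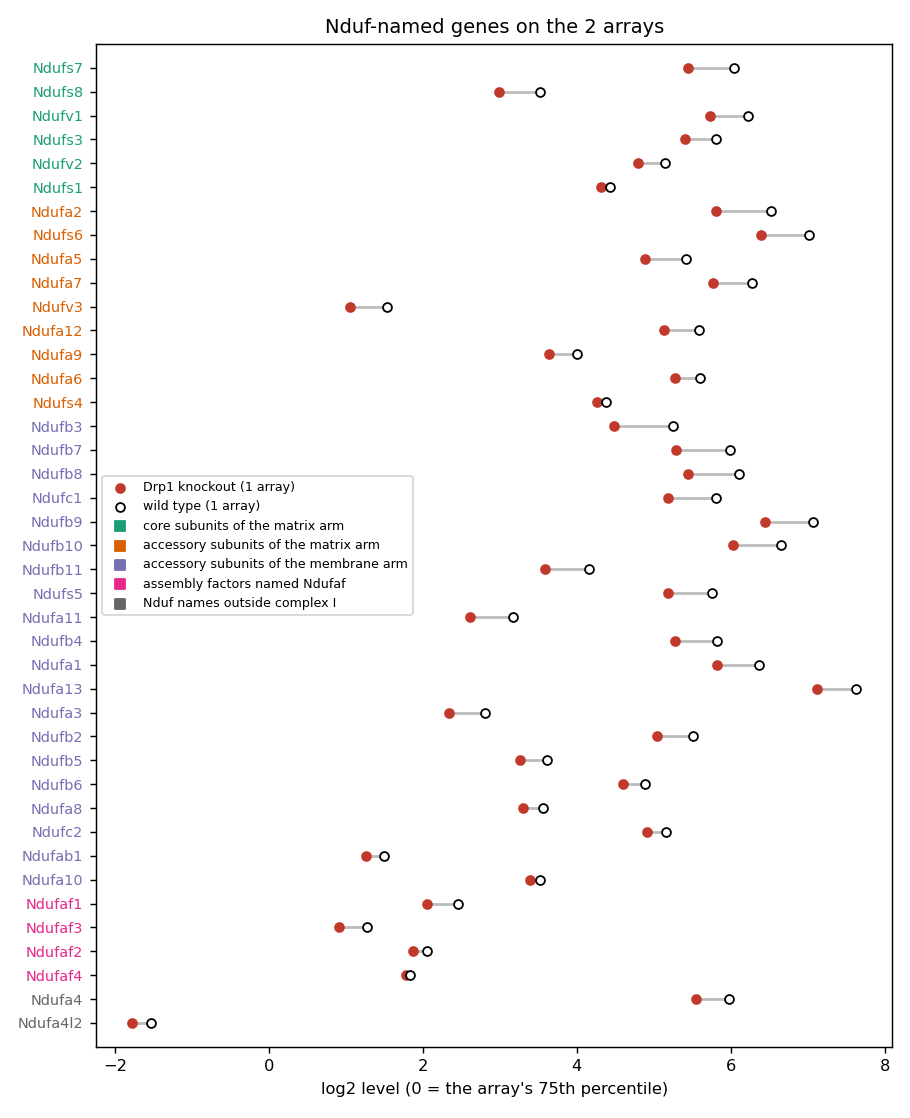
Log2 level (horizontal axis, 0 is the array's 75th percentile) of each of 41 Nduf-named genes on the knockout array (filled) and the wild type array (open), grouped by role. Only the 2 points of a row can be compared, since probes of different genes differ in brightness, and in all 41 rows the knockout point lies left of the wild type point (right of it in all 41 under spike-in scaling).

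The 4 assembly factors named Ndufaf had a median of -0.28 relative to the 75th percentile. It was -0.16 after loess and 0.55 after spike-in scaling. Relative to the 75th percentile, 0 of 4 were at least 1.5-fold lower, against 13.4% of all genes. Ndufaf1, part of the complex that builds the membrane arm, had 4.15 in the knockout and 5.48 in the wild type (-0.40). Ndufaf3, which works with Ndufaf4 on the early quinone module, had 1.88 in the knockout and 2.42 in the wild type (-0.36). Ndufaf4 itself had 3.45 in the knockout and 3.56 in the wild type (-0.04), with probes at -0.10 and 0.01. Ndufaf3 and Ndufaf4, partners in assembly, thus differed by less than 2 spot SDs of a pair. Ndufaf2, the stand-in for Ndufa12, had 3.65 in the knockout and 4.16 in the wild type (-0.19). The subunits' median was -0.50, which is 0.22 more negative than that of the assembly factors, and after loess the 2 medians were -0.17 and -0.16. The gap between subunits and assembly factors did not stand after loess.

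Both genes outside complex I had values within the members' range. Ndufa4 had 46.9 in the knockout and 63.1 in the wild type (-0.43). Ndufa4l2, which hypoxia induces, had 0.292 in the knockout and 0.346 in the wild type (-0.25). All 9 genes at least 1.5-fold lower were subunits of complex I, which make up 36 of the 42 members. This holds for the array's names, since the assembly factor Ndufaf5 carries an older name and is given below.

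Pairs of members were rarely separable. Of 861 pairs, 104 were further apart than 2 spot SDs of a pair (0.40). Probes of the same member had an SD of 0.22 over 10 genes, against 0.36 over 3357 genes of the array. With that error, which includes differences between probes, only 6 of the 861 pairs were further apart than 2 SDs (0.62). Some probes of Ndufb2, Ndufb4 and Ndufb11 overlap in sequence, so this error may be too small. The order within the set is therefore mostly unresolved, apart from its ends.

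**Figure D4:**
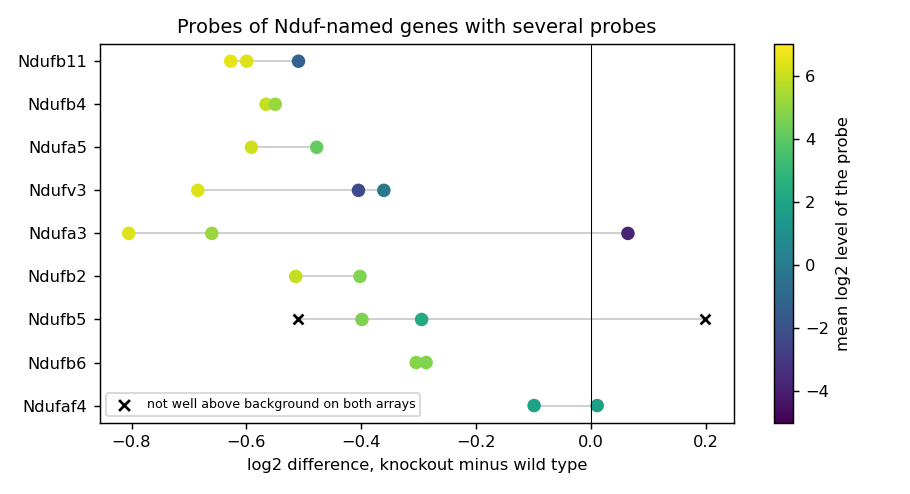
Log2 difference (horizontal axis, knockout minus wild type) of each probe for 9 Nduf-named genes with several measured probes, coloured by the probe's mean log2 level on both arrays, with crosses for probes not well above background on both arrays. Ndufb4 and Ndufb6 have probes whose values nearly coincide, while those of Ndufa3 span from -0.80 to 0.06. The probes of Ndufb4 overlap in sequence, so their agreement is not independent.

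Position along the transcript moved with the difference as well. Member probes for RefSeq transcripts that end within the first 500 bases (19 probes) had a median of -0.53, those ending at 500 to 1000 bases (22 probes) -0.35, those at 1000 to 1500 bases (4 probes) -0.38 and those at 1500 to 2500 bases (4 probes) -0.30, so the medians did not follow position in strict order. All probes of RefSeq transcripts ran from -0.23 in the first of these classes to -0.02 beyond 2500 bases. After loess, the member classes had medians of -0.25, -0.15, -0.19 and -0.03. Most complex I transcripts are short, so position and transcript length cannot be told apart here. The part of either in the result was not tested.

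Beyond the name rule, 7 core subunits of the membrane arm come from mitochondrial DNA. Their median was -0.56 relative to the 75th percentile, with 3 of 7 at least 1.5-fold lower, against 13.4% of all genes. After loess it was -0.18, with 1 of 7 (mt-Nd6) lower, against 9.5% of all genes. After spike-in scaling it was 0.26, with 0 of 7 lower, against 1.25% of all genes. The proton-pumping subunit mt-Nd4 had 137 in the knockout and 211 in the wild type (-0.62), and mt-Nd4l had 80.1 in the knockout and 130 in the wild type (-0.70). The third, mt-Nd6, the subunit encoded on the other strand, had 0.659 in the knockout and 1.23 in the wild type (-0.91), and remained below 0 (-0.08) under spike-in scaling. In contrast, mt-Nd1, which completes the quinone site, had 44.0 in the knockout and 39.8 in the wild type (0.15). The others were mt-Nd2 at -0.47, mt-Nd3 at -0.56 and mt-Nd5 at -0.33. Of the 7, 6 were thus lower relative to the 75th percentile, as the nuclear subunits were.

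Among assembly factors without an Nduf name, 11 of 12 listed were measured, with a median of -0.05 (0.78 after spike-in scaling). Of these 11, 1 was at least 1.5-fold lower, against 13.4% of all genes. That gene was Dmac2, with 4.87 in the knockout and 8.68 in the wild type (-0.83). Dmac1, which like Dmac2 serves the distal membrane arm, had 3.87 in the knockout and 5.79 in the wild type (-0.58). Partners of Ndufaf1 were at -0.45 (Ecsit), -0.05 (Acad9) and -0.05 (Tmem126b). Differences of this size between single genes are not resolved beyond the error between probes. Foxred1 was at -0.30, Timmdc1 at -0.18, Nubpl, an iron-sulfur carrier for complex I, at -0.02, Lyrm2 and Tmem70 at 0.11 each, and Tmem186 at 0.43 (0.307 in the knockout and 0.229 in the wild type). Over the nuclear factors and mitochondrial subunits together, the median was -0.31. At least 1.5-fold lower were 4 of 18 and higher 0, against 13.4% and 8.42% of all genes. After loess 2 of 18 were lower (median -0.066), against 9.5% of all genes. After spike-in scaling 0 were lower and 8 higher (median 0.51), against 1.25% and 62.4% of all genes.

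Some probes of complex I genes carry older names on this array and so fall outside the rule. Through their accessions or synonyms, Ndufaf6 was at -0.16, Ndufaf7 at -0.21 and Ndufaf8 at -0.48, and a probe under a predicted name for Ndufb1 gave -0.38. For Ndufaf5, 1 of 3 probes was measured on both arrays, with 0.373 in the knockout and 0.681 in the wild type (-0.87). All 5 lay below 0 relative to the 75th percentile, like the members, and Ndufaf5 lay beyond the most negative of them. With current symbols 10 genes were at least 1.5-fold lower, Ndufaf5 among them. Choosing the members by current symbol in place of the array's name kept the direction of every gene named here.

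For complexes II to V, subunits encoded in mitochondrial DNA were not listed. The 38 listed subunits of these complexes, all encoded in the nucleus, were set beside complex I. Their median was -0.49 over 38 genes relative to the 75th percentile. At least 1.5-fold lower were 12 of 38 and higher 0, against 13.4% and 8.42% of all genes. After loess the median was -0.17 and 1 of 38 was still called lower, against 9.5% of all genes. After spike-in scaling it was 0.34, with 0 called lower and 8 higher, against 1.25% and 62.4% of all genes. By complex, the medians were -0.22 for complex II (4 genes), -0.47 for complex III (9), -0.59 for complex IV (10) and -0.51 for complex V (15). Complex I, at -0.50 for its 36 subunits, lay among these, and no difference between complexes was tested. In complex II, Sdha stood at 0.04, Sdhc at -0.21, Sdhd at -0.23 and Sdhb at -0.36. The ends of complex III were Uqcr11 (-0.72), Uqcrq (-0.61) and Uqcrh (-0.53) on one side and Uqcrfs1 (-0.16), Uqcrc2 (-0.29) and Uqcrc1 (-0.35) on the other. In complex IV they were Cox7b (-0.68), Cox6c (-0.63) and Cox8a (-0.60), and Cox7c (-0.36), Cox5a (-0.39) and Cox7a2 (-0.46). In complex V, the ATP synthase, they were Atp5j (-0.85), Atp5k (-0.81) and Atp5e (-0.69), and Atp5f1 (-0.06), Atp5b (-0.19) and Atp5a1 (-0.20). The small accessory proteins Uqcr11 and Atp5k thus stood at the negative end of their complexes and the catalytic Atp5b near the other, while in complex IV small proteins stood at both ends (Cox7b and Cox7c).

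**Figure D5:**
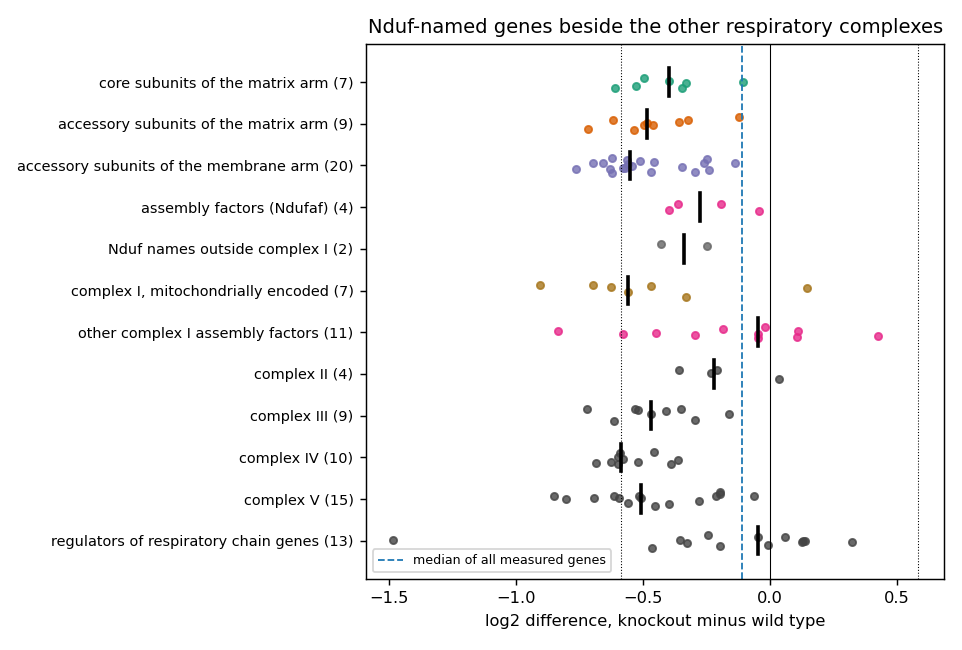
Log2 difference (horizontal axis, knockout minus wild type) of each measured gene in the role groups of complex I, the other respiratory complexes (listed nuclear subunits) and the regulator list, with the number of genes in brackets. Black bars are group medians, the dashed line is the median of all measured genes (-0.11), dotted lines mark 1.5-fold, and every bar would move up by 0.82 under spike-in scaling.

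Factors known to drive the transcription of respiratory chain genes had a median of -0.05 over 13 genes. At least 1.5-fold lower was 1 and higher 0, against 13.4% and 8.42% of all genes. After spike-in scaling the median was 0.78, with 1 lower and 8 higher, against 1.25% and 62.4% of all genes. The coactivators Ppargc1a, Ppargc1b and Pprc1 were at 0.13, -0.20 and 0.14. The DNA-binding factors were at -0.35 (Nrf1), -0.05 (Gabpa), 0.13 (Gabpb1) and -0.01 (Yy1). Of these 7, Nrf1 was beyond 2 spot SDs of 0. Esrra, the orphan receptor that acts with Ppargc1a on mitochondrial genes, had 5.96 in the knockout and 8.23 in the wild type (-0.47). Its relative Esrrg had 0.0599 in the knockout and 0.168 in the wild type (-1.49), 2.80-fold lower, at signals close to background. The factors of mitochondrial DNA transcription were Tfam at 0.06, Tfb1m at 0.32, Tfb2m at -0.32 and Polrmt at -0.24.

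The promoters of the members were searched, on both strands, for motifs of such factors in windows of 250 bases before to 50 bases after the start site, from RefSeq with GRCm38.p6 coordinates. In all, 37 of the 42 members had a window. The YY1 motif AAGATGGCG was present in 5 of 37 genes (13.5%, or 12.8% of their 39 windows), against 1.40% of 32851 windows of all genes. In these 5, Ndufa9, Ndufc1, Ndufs4, Ndufs6 and Ndufs7, it started on the gene's own strand between 22 and 35 bases after the start site. The motif holds the letters ATG, and whether these are each gene's start codon was not checked. The stretches are shown for their shared position, with the motif in capitals, at chr6:126849096-126849125 (Ndufa9, minus strand), chr3:51408914-51408943 (Ndufc1, minus), chr13:114388045-114388074 (Ndufs4, minus), chr13:73328433-73328462 (Ndufs6, minus) and chr10:80249463-80249492 (Ndufs7, plus).
Ndufa9: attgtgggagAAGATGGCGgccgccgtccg
Ndufc1: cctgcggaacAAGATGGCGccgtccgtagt
Ndufs4: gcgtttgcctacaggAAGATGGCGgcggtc
Ndufs6: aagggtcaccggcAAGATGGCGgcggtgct
Ndufs7: ggccgaggccAAGATGGCGgcgctggcggg

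The 5 genes that share this motif did not share a size of difference. Ndufc1, Ndufs6 and Ndufs7 were among the 9 at least 1.5-fold lower, Ndufa9 was at -0.36 and Ndufs4 at -0.12. The NRF1 motif GCGCATGCG was present in 3 of 37 genes (8.11%, or 7.69% of their windows), against 1.75% of all windows. These were Ndufa11 (-0.56), Ndufa8 (-0.26) and Ndufaf4 (-0.04), which lie apart within the range, Ndufaf4 at its least negative end. The stretches, with the motif and any overlapping copy on the other strand in capitals, lie at chr17:56717692-56717721 (Ndufa11, plus strand), chr2:36049328-36049357 (Ndufa8, minus) and chr4:24897960-24897989 (Ndufaf4, plus).
Ndufa11: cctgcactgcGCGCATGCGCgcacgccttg
Ndufa8: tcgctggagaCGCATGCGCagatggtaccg
Ndufaf4: ccagatgtctGCGCATGCGCctgtgcggaa

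The GABP motif CCGGAAGT was present in 1 gene, Ndufs3 (2.70% of genes and 2.56% of member windows, against 3.89% of all windows). The TATA box TATAAA was present in 4 genes (10.8% of genes and 12.8% of member windows, against 13.6%). The composite Atf4 and Chop motif TGATGCAAT was present in 0 of 37 genes, against 0.192% of all windows. A match is a description of letters, not of binding, and a window without a match says nothing about the factor.

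Markers of the cells in the tissue moved between the arrays as well. Of 7 hepatocyte markers on the array, all were above background on both arrays. Their summed level was 1326 in the knockout and 1877 in the wild type, with 6 of 7 lower in the knockout, against 60.1% of all genes. The exception was Cps1, with 11.9 in the knockout and 7.86 in the wild type (0.60). The median difference of the 7 was -0.52, whereas all 7 were above 0 (median 0.31) after spike-in scaling. Albumin had 604 in the knockout and 865 in the wild type (-0.52, or 0.31 after spike-in scaling). Of 15 skeletal muscle markers, 4 were above background in the knockout and 14 in the wild type, and their summed level was 1.96 in the knockout and 14.9 in the wild type. Of the defining genes, Acta1, Ckm, Myh1, Myh2 and Myh4 were not well above background in the knockout, and Tnnc2 was at least 88.1-fold lower there. The 4 muscle markers measured on both arrays were Atp2a1 (-0.05), Eno3 (-0.51), Pvalb (-1.35) and Tnni2 (-4.18). After spike-in scaling these 4 were at 0.77, 0.32, -0.53 and -3.36. Brown fat markers summed to 24.4 in the knockout and 55.1 in the wild type, of which Ppara, also expressed by hepatocytes, made up 18.6 in the knockout and 38.9 in the wild type, and Ucp1 was not well above background in the knockout. Of 6 heart and slow muscle markers, 2 were above background in the knockout and 3 in the wild type. Their sums of 0.217 in the knockout and 0.485 in the wild type thus contain background, and Tnnt2 went the other way, at least 1.62-fold higher in the knockout. Macrophage markers (41.6 in the knockout and 27.1 in the wild type) and stellate cell markers (70.5 in the knockout and 47.5 in the wild type) had higher sums in the knockout. Of the 6 macrophage markers, 1 was lower (Clec4f, 14.4 in the knockout and 16.1 in the wild type). Marco had 16.7 in the knockout and 5.33 in the wild type. Dcn made up most of the stellate sums (63.0 in the knockout and 44.6 in the wild type). The other 6 were at least 1.5-fold higher, against 8.42% of all genes. Endothelial markers (17.3 against 23.4) and lymphocyte markers (3.94 against 4.97) had lower sums in the knockout, with medians of 0.21 and 0.15. Bile duct markers also had a higher sum in the knockout, with 1.08 there and 0.494 in the wild type. These sums contain background too, since Epcam was below it on both arrays and Krt7 in the wild type. Their largest part was Spp1, with 0.689 in the knockout and 0.260 in the wild type. Sox9 was 2.37-fold higher in the knockout and Krt19 1.16-fold higher. All 4 neutrophil markers were at least 1.5-fold lower in the knockout, against 13.4% of all genes. Their sums were 2.05 in the knockout and 4.45 in the wild type, and their median was -1.07. After spike-in scaling the median was -0.25, with Retnlg at -0.77, S100a9 at -0.28, S100a8 at -0.22 and Camp at 0.13. The part of these cell types in the complex I differences was not tested. In bulk tissue, fewer cells of a type and less RNA per cell cannot be told apart.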

How the data were processed

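Amplified and Cy3-labelled liver RNA was hybridised to 1 array per group, per the labels' protocols. The scanner files hold spot intensity values from Agilent Feature Extraction, background-subtracted and detrended, per the file headers; version 9.5.1.1 is given in the submitters' processing notes and module version 10.7.1.1 in the headers. In the deposited value table, intensity values are linear and their sorted columns agree to within 0.0417%, as quantile normalization gives; its direction is known from Spearman correlations of 0.9999 and 1.0 with the scanner values.

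Of 44397 spots, 1377 controls and the outlier spots (190 on the knockout and 183 on the wild type array) were left out, and 0 were saturated. Signals were divided by the array's 75th percentile and log2-transformed. A probe was measured if 50% or more of its usable spots lay well above background. A gene is the mean of its probes measured on both arrays. Members kept the array's names, and other genes were named through RefSeq (GRCm38.p6) by accession (26761 probes), by symbol or synonym (4453) or by the file (8215). Probe positions are those of the files (mm9) and were not converted. Coordinates of promoters are those of RefSeq. Genes were called from 1.5-fold. With 1 array per group there was no test, and precision is limited by the number of arrays.

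The members, gene lists and motifs were chosen with earlier results of these data known. Every member is named except 1, which counts in all totals and medians but is not reported here; from each other list the 3 most negative and the 3 most positive differences are named, and all regulators and all complex I genes without an Nduf name. The marker genes, Ndufb11 as the neighbour of the threshold and probes under older names were named after their values were seen. The alternatives were quantile and loess normalization (span 0.3), median centring, normexp background correction (offset 50), no filter and a stricter filter on dim probes (25th percentile), the brightest probe, current symbols, the deposited table, and spike-in scaling, which was added after an earlier look at the data. On simulated arrays with 200 changed genes, the mean estimates were checked against the true differences. The simulation held spot error alone and no shift with brightness, so it does not check the counts near 1.5-fold. Work was done in Python 3.11.15 (numpy 2.4.6, pandas 2.3.3, matplotlib 3.10.9) and R 4.3.3 (limma 3.58.1).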

Additional observations from a re-analysis of the deposited data

How the results depend on the processing

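No paired analysis was possible because each group held 1 array, and for the same reason no replicate could be left out. Median centring and the use of current symbols moved every median and named gene by less than the spot SD of 0.14, and counts by less than 1.5 times. The median of the members was -0.19 after quantile normalization, -0.17 after loess, -0.20 in the deposited table and 0.36 after spike-in scaling, and that of the subunits -0.19, -0.17, -0.20 and 0.33. In the same order, core subunits had -0.11, -0.10, -0.11 and 0.43, accessory subunits of the matrix arm -0.17, -0.17, -0.17 and 0.34, those of the membrane arm -0.25, -0.24, -0.25 and 0.27, complex I genes without an Nduf name -0.096, -0.066, -0.091 and 0.51, and complexes II to V -0.17, -0.17, -0.18 and 0.34. Assembly factors had 0.55 and regulators 0.78 after spike-in scaling, and regulators -0.20 with the brightest probe per gene. Members at least 1.5-fold lower numbered 0 after quantile normalization, loess, spike-in scaling and in the deposited table, 4 with normexp background correction, 10 with a stricter filter or current symbols and 13 with the brightest probe per gene; 5 were at least 1.5-fold higher after spike-in scaling. All measured genes had a median of 0.71 after spike-in scaling and -0.31 without a filter on dim probes. Of all genes, 192 were at least 1.5-fold lower and 9600 higher after spike-in scaling (1.25% and 62.4%). The counts were 11307 and 3164 without the filter, and 1269 and 655 with a stricter one, which tests fewer or more genes by construction. With none of the alternatives, 2060 of all genes (13.4%) were at least 1.5-fold lower, and 2060 with current symbols. This count was 1842 after quantile normalization, 1461 after loess (9.5%) and 1755 in the deposited table. It was 2099 with the brightest probe per gene and 1465 with normexp, where 658 were higher. Spike-in scaling adds the same 0.82 to every difference and so turned the sign of all 42 members. Among the genes named here that had been at least 1.5-fold lower, members or not, it did so for Ndufa2 (0.11), Ndufb10 (0.20), Ndufb3 (0.061), Ndufb7 (0.13), Ndufb8 (0.17), Ndufb9 (0.20), Ndufc1 (0.20), Ndufs6 (0.21), Ndufs7 (0.22), mt-Nd4 (0.20), mt-Nd4l (0.13), Uqcr11 (0.11), Uqcrq (0.21), Cox7b (0.14), Cox6c (0.20), Cox8a (0.23), Atp5k (0.019) and Atp5e (0.13). The cause of the other changes was not tested. The spot error covers measuring on the array only, and dim genes such as Esrrg and Ndufa4l2 rest on signals nearer to background.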

Other observations

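Subunit isoforms of complex IV that are known from muscle and brown fat, listed here as markers of those tissues, differed more than the complex I genes did. Cox7a1, the muscle isoform of the Cox7a subunit, had 0.862 in the knockout and 2.65 in the wild type, a log2 difference of -1.62. Cox8b had 0.0744 in the knockout and 1.26 in the wild type, 16.9-fold lower (-4.08). Their liver counterparts stood at -0.46 (Cox7a2) and -0.60 (Cox8a), values that spike-in scaling moves to 0.37 and 0.23. Cidea, a lipid droplet protein listed here as a brown fat marker, had 0.488 in the knockout and 4.23 in the wild type, 8.67-fold lower. Which cells of the tissue gave this signal was not tested. Ppara, the fatty acid-sensing receptor that liver also expresses strongly, had 18.6 in the knockout and 38.9 in the wild type, 2.09-fold lower. Under spike-in scaling the differences were -0.79 for Cox7a1, -3.26 for Cox8b, -2.29 for Cidea and -0.24 for Ppara, which is then less than 1.5-fold lower.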
